A study of Mus musculus with 36 samples.

Results

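The pNSC population of the adult mouse subependymal zone (SEZ) was set against the midpoint of the qNSC and aNSC populations, gene by gene. The subependymal zone lines the lateral ventricles of the brain and holds neural stem cells that give rise to new neurons throughout life. The labels name the 3 populations only as pNSC, qNSC and aNSC. The study they come from called them primed, quiescent and activated neural stem cells. Of the 19909 genes in the deposited table, 16606 had a log2 value of at least 0 in at least 3 libraries of one of the 3 populations and were tested. The quantity tested was the deviation, the pNSC mean minus the mean of the qNSC and aNSC means. A gene that changes evenly along the way from qNSC to aNSC has a deviation near 0 if pNSC lies midway.

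The pNSC, qNSC and aNSC groups had 4 libraries each, 12 of the 36 in the series. All came from C57BL/6 mice aged 8 weeks, untreated as far as the labels say, as cells sorted by flow cytometry from homogenised subependymal zone. Poly(A) RNA was sequenced in bulk, so fewer cells of a type and less RNA per cell cannot be told apart, nor can a population of intermediate cells be told from a blend of cells of both ends. How the sort was gated is not stated in the labels, which also do not say that replicates came from separate animals. The p-values then measure only how far these libraries spread, which may be technical.

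Most stem cells of this niche rest outside the cell cycle in an astrocyte-like form, with glutamate transporters, gap junctions and lipid metabolism typical of astroglia. On activation they lose much of that program, raise EGF receptor and proneural factors, make ribosomes and enter division. Their progeny become neuroblasts, which express Dcx and Dlx genes and migrate to the olfactory bulb. Cells between rest and division keep astroglial transcripts while growth and signalling genes change.

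The libraries carried the transcripts of the labelled cells. Slc1a3, the glutamate transporter of astroglia and stem cells, averaged 12.21 ± 0.10 in pNSC, 12.13 ± 0.13 in qNSC and 10.50 ± 0.43 in aNSC (log2, SD, n = 4 each). Across all genes tested, the 4 pNSC libraries lay at 50.4%, 32.7%, 32.2% and 23.6% of the way from the qNSC mean to the aNSC mean, with replicate 1 farthest along. The least complete libraries were pNSC replicate 1, with 2319 genes at its lowest value, and qNSC replicate 1, with 3932. Against those, other libraries of the 3 groups had at most 1876 genes at that floor. Summed linear values of 27 neuroblast genes were 5898 in pNSC replicate 1 and 2522 to 3230 in the other pNSC libraries, against 1239 to 1696 in qNSC and 4276 to 5490 in aNSC. Summed values of 20 microglial markers were 699 to 1274 in pNSC, against 402 to 990 in qNSC and 328 to 511 in aNSC. Endothelial markers summed to 705 to 954 in pNSC, 1004 to 1241 in qNSC and 411 to 482 in aNSC, and the defining genes Cldn5, Pecam1 and Flt1 were at 2.60 or below in every library of the 3 groups. Of the mural cell markers, Pdgfrb was at 4.46 to 7.06 in pNSC, 6.84 to 7.30 in qNSC and at most 2.01 in aNSC, whereas Rgs5 and Acta2 stayed at 1.935 or below. The oligodendrocyte gene Mbp was at 3.54 to 6.78 in pNSC, 3.23 to 7.35 in qNSC and 2.93 to 4.54 in aNSC.

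On log2 values, the pNSC libraries departed from the midpoint mostly in genes that stayed near their qNSC level. Of the 16606 genes, 1447 (8.71%) had a deviation with a limma adjusted p under 0.05. These were 1219 above the midpoint (7.34%) and 228 below it (1.37%), with a median deviation over all genes of -0.05. Against a midpoint of linear values the split was the other way, with 212 of 669 passing genes above it. The largest class was late down, 1116 genes (6.72%) that were lower in aNSC than in qNSC and still lay above the midpoint in pNSC. Late up genes, higher in aNSC and still low in pNSC, numbered 155 (0.933%). Genes that had already moved past the midpoint were fewer, 29 early up (0.175%) and 9 early down (0.0542%). Outside both ends lay 43 peak genes (0.259%), above both other groups at adjusted p under 0.05, and 27 dip genes (0.163%), below both. A further 68 genes (0.409%) passed without meeting any of these definitions.

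**Figure D1:**
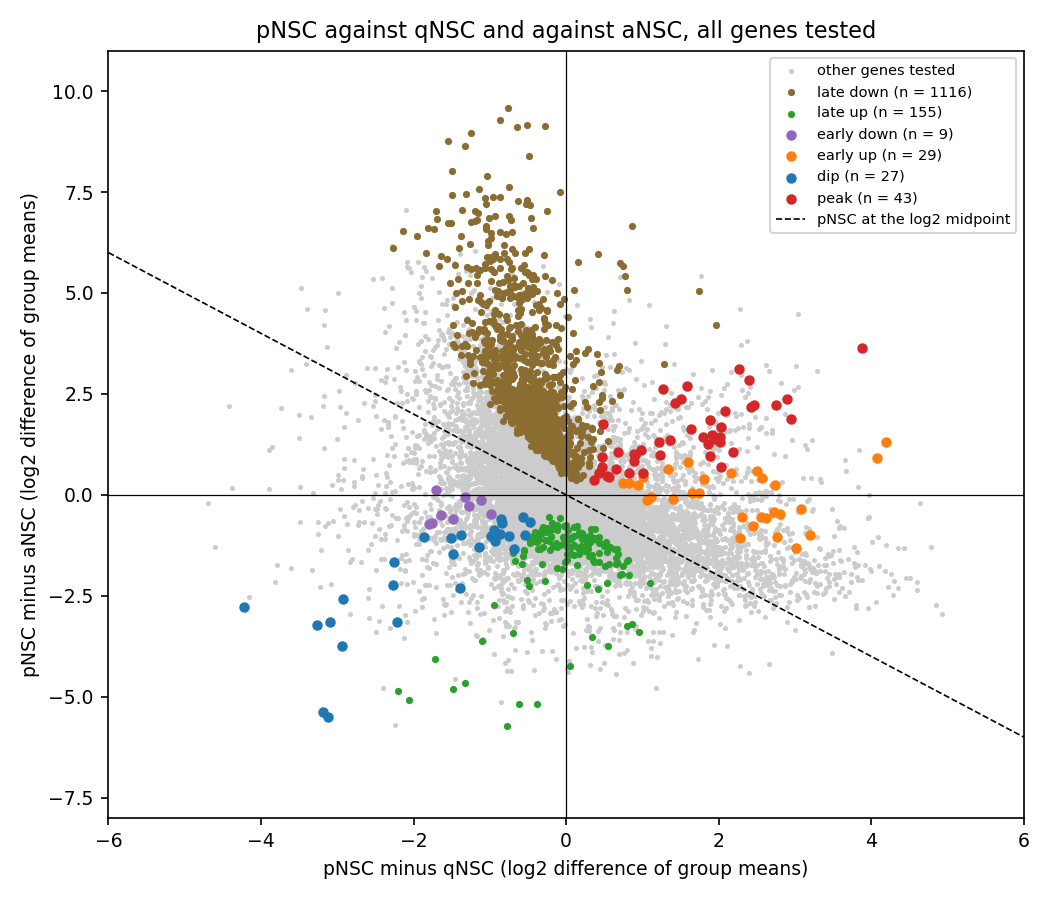
Each point is a gene tested, with pNSC minus qNSC on the horizontal axis and pNSC minus aNSC on the vertical axis, both as log2 differences of group means. The 43 peak genes lie at the upper right and the 27 dip genes in the lower left, and the 1116 late down genes fill the band above the dashed line on which pNSC equals the log2 midpoint.

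The split between early and late depends on the scale of the midpoint, while peaks and dips lie outside both ends on any scale. Against the linear midpoint 31.7% of the genes that passed were above it, and 84.2% with the log2 midpoint. The late down class then held 167 genes, all of them among the 1116, and 949 of the others lay on the line. The late up class held 405 genes, 141 of them among the 155. Of the 29 early up genes 3 stayed early up, and all 9 early down genes stayed early down. Peaks numbered 33 and dips 23, each a subset of the log2 classes.

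**Figure D2:**
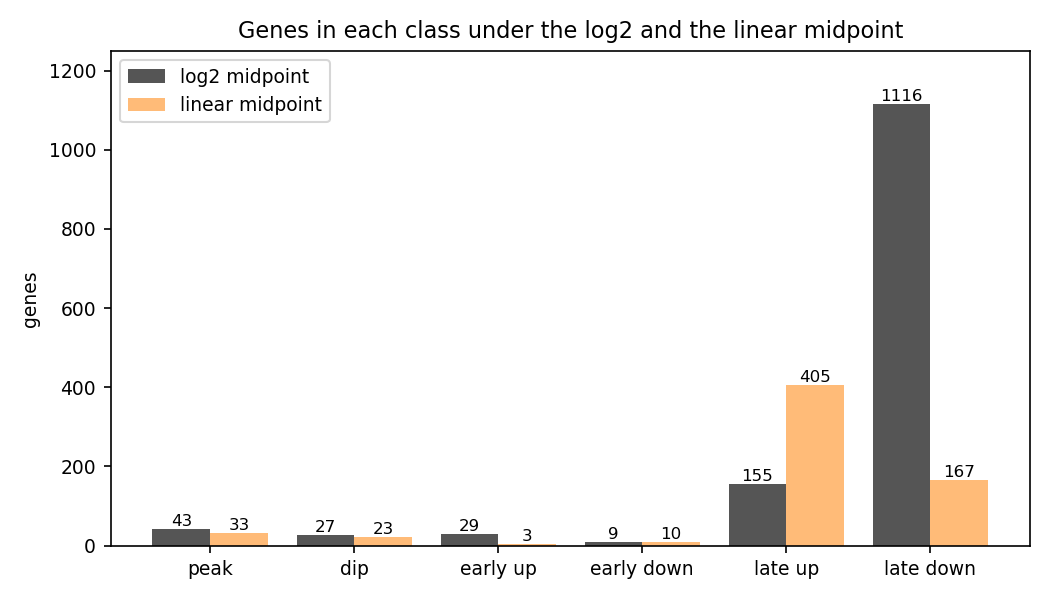
Bars give the number of genes in each class with the midpoint of qNSC and aNSC taken on log2 values (grey) and on linear values (orange). Late down genes numbered 1116 and 167, late up genes 155 and 405, and peaks 43 and 33.

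Peak genes differed in the populations where they were highest. Among the 8 freshly sorted populations (pNSC, qNSC, aNSC, Other, NPC1, NPC2, NB1 and NB2), which the choice of peaks did not use beyond the first 3, pNSC had the highest mean for 18 of the 43. NB2 had it for 19, Other for 5 and NB1 for 1. The 18 included Csf1r, Cyth4 and Il6ra, which microglia or other myeloid cells express and which are described below. In 10 of the 18, all 16 libraries of the other 5 populations lay below the lowest pNSC library. These were Prss56, Ecel1, Notum, Notumos, Myadml2os, Tnc, 8030451A03Rik, Shisa2, Ildr2 and AC124555.1. The same was true of 1243 of the 15159 genes on the line and of 850 of the 1116 late down genes. Of all 43, 11 (25.6%) had another peak gene within 100 kb, at 5 loci. The same share was 46.6% among the far more numerous late down genes and 0% among dips.

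Prss56, a secreted trypsin-like serine protease, and Ecel1, a membrane protein of the neprilysin family, are neighbours on chromosome 1 on opposite strands and 26792 bases apart. Prss56 lies at 87183313 to 87188405 on the forward strand and Ecel1 at 87147655 to 87156521 on the reverse strand (GRCm38). The 250 bases upstream of each RefSeq transcript start are shown because the pair moved together. In lower case, 5′ to 3′, with none of the 9 motifs searched, these run as follows.
Prss56, chr1:87183064-87183313, forward strand: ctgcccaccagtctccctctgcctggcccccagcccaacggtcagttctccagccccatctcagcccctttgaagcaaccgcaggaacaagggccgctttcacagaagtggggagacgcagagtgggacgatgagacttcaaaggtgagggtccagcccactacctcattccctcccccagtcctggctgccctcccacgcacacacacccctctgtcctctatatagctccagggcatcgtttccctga
Ecel1, chr1:87156357-87156606, reverse strand: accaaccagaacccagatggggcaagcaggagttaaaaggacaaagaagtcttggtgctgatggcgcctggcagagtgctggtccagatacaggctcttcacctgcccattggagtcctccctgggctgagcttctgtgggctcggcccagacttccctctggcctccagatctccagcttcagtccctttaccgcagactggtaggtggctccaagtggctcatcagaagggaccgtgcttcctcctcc

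Prss56 had log2 values of 9.01, 9.28, 9.34 and 8.70 in pNSC, against 7.65, 8.15, 7.81 and 7.61 in qNSC and 5.75, 6.80, 6.58 and 6.69 in aNSC. Every pNSC library lay above every library of both other groups. Of all genes 10.9% were higher in pNSC than in qNSC and 20.9% higher than in aNSC. Prss56 was higher in pNSC by 1.28 ± 0.22 than in qNSC (adjusted p 0.00213) and by 2.63 ± 0.22 than in aNSC (3.65e-07; log2, SE, limma). Ecel1 had values of 7.56, 8.49, 8.06 and 7.98 in pNSC, against 6.77, 6.95, 6.39 and 6.26 in qNSC and 5.25, 6.07, 5.82 and 5.83 in aNSC. Again no library overlapped. Its differences were 1.43 ± 0.22 from qNSC (0.00126) and 2.28 ± 0.22 from aNSC (1.83e-06), and its deviation lost its call when all 28 freshly sorted libraries shared 1 estimate of spread (0.0612). Down the lineage Prss56 averaged 3.87 in NPC1, 2.34 in NPC2, 0.73 in NB1 and 0.41 in NB2, and Ecel1 averaged 3.67, 1.73, 0.06 and -1.62 in the same order. In the neurosphere populations DFFDA_H and DFFDA_L, cultured cells sorted on a dye, Prss56 averaged -4.03 and -4.76.

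Notum, a secreted enzyme that removes the lipid from Wnt proteins and so inhibits them, rose in pNSC (chromosome 11, 120653788 to 120661175, reverse strand). Its values were 8.46, 8.84, 8.80 and 8.41 in pNSC, against 5.98, 6.98, 6.98 and 6.51 in qNSC and 6.56, 7.65, 7.56 and 7.52 in aNSC. The lowest pNSC library lay above the highest library of both other groups. The differences were 2.02 ± 0.26 from qNSC (adjusted p 0.000403) and 1.31 ± 0.26 from aNSC (0.000977). Its antisense neighbours Notumos and Myadml2os overlap it and peaked as well, with pNSC means of 6.41 and 7.93, against 4.46 and 5.91 in qNSC and 5.04 and 6.51 in aNSC. The library kit does not mark strand, so reads of these 3 genes cannot be told apart. Notum averaged 4.08 in NPC1 and 0.61 in NB2, and -4.62 in DFFDA_H.

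The extracellular matrix glycoprotein gene Tnc (tenascin C) and the overlapping antisense transcript 8030451A03Rik also peaked. Tnc values were 5.53, 5.82, 5.62 and 5.50 in pNSC, against 4.36, 4.64, 2.96 and 4.16 in qNSC and 2.45, 3.31, 3.11 and 2.78 in aNSC. The pNSC libraries were the closest together and lay above all others. The differences were 1.58 ± 0.32 from qNSC (adjusted p 0.00614) and 2.71 ± 0.32 from aNSC (1.39e-05), and it did not count as a peak when all 28 libraries were fitted together. Unlike Prss56, Ecel1, Notum, Notumos and Shisa2, whose cultured means were under 0, Tnc was high in neurospheres, at 8.9997 in DFFDA_H and 9.12 in DFFDA_L. RefSeq lists 2 starts for Tnc, and the 250 bases before the downstream one are shown because they hold the RBPJ motif (TTCCCAC, capitals, here on the opposite strand), a letter match and no evidence of binding.
Tnc, chr4:64046937-64047186, reverse strand: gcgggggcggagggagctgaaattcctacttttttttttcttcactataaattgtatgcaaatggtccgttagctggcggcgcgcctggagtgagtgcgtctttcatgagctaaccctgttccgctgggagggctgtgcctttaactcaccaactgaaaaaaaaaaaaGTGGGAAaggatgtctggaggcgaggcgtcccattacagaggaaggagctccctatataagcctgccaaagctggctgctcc

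Shisa2, which encodes a membrane protein that holds back Wnt and FGF receptors in the endoplasmic reticulum, had the smallest p of all peaks. Its values were 8.08, 7.77, 7.86 and 7.67 in pNSC, against 7.28, 7.35, 7.33 and 7.47 in qNSC and 6.02, 6.00, 6.22 and 6.08 in aNSC. The step over qNSC was small and free of overlap, at 0.49 ± 0.11 (adjusted p 0.0093), and that over aNSC was 1.76 ± 0.11 (2.13e-08). Lrrn1, a leucine-rich repeat membrane protein, differed little between the ends and stood above both, at 8.38 ± 0.15 in pNSC, 7.82 ± 0.10 in qNSC and 7.93 ± 0.11 in aNSC (SD, n = 4 each). The intermediate filament gene Vim averaged 7.18 ± 0.40 in pNSC, 6.36 ± 0.25 in qNSC and 6.64 ± 0.08 in aNSC. Pax6, a transcription factor of stem cells and of dopaminergic olfactory neurons, averaged 6.38 ± 0.18 in pNSC, 5.85 ± 0.24 in qNSC and 5.92 ± 0.08 in aNSC. Shisa2, Lrrn1 and Vim were named after their values were seen. Pax6 lost its call in some fits that left out a library (adjusted p 0.00371 to 0.0771 over the alternatives).

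Neuroblast genes formed another kind of peak. Of 25 tested members of a neuroblast list, 13 passed above the midpoint, against 7.34% of all genes. They were 6 peaks (Dlx6os1, Sp9, Sp8, Dlx5, Dcx and Map1b), 3 early up genes (Tubb3 and Elavl4 among them), 3 late down genes (Ncam1, Gad1 and Stmn2) and Dlx6. The list's median deviation was 1.1, beside -0.05 over all genes, and without pNSC replicate 1, 11 members passed above the midpoint, 4 of them peaks, and 1 passed below it as late up. Against the linear midpoint 8 passed above and 1 below, with 6 peaks. The members sit in the same libraries as the summed neuroblast level given above, which was highest of all pNSC libraries in replicate 1. In replicates 2, 3 and 4 of pNSC that sum was below every aNSC library. Dlx6os1, Sp9 and Dcx were above every aNSC library, but peaks were selected as higher in pNSC than in aNSC. The part of neuroblast RNA in these results was not tested.

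Dlx6os1 (Evf), a long noncoding RNA beside the forebrain interneuron genes Dlx5 and Dlx6, had values of 8.47, 6.55, 7.68 and 7.20 in pNSC, against 4.66, 5.73, 4.43 and 5.46 in qNSC and 4.89, 4.41, 4.90 and 4.29 in aNSC. All pNSC libraries lay above all others, and aNSC was no higher than qNSC. It differed from qNSC by 2.40 (adjusted p 0.0013) and from aNSC by 2.85 (3.26e-05), and was higher still in NPC1 (8.03), NB1 (10.03) and NB2 (11.06). Sp9, a zinc finger factor of striatal and olfactory interneurons, had values of 7.58, 5.58, 6.14 and 5.77 in pNSC, against 4.01, 4.87, 4.03 and 4.03 in qNSC and 5.07, 4.44, 4.65 and 4.22 in aNSC. Dcx, the microtubule-binding protein of migrating neuroblasts, had 6.43, 4.53, 5.09 and 5.10 in pNSC, against 3.30, 3.89, 3.09 and 3.42 in qNSC and 4.29, 3.43, 4.33 and 4.05 in aNSC. In both, replicate 1 was the highest pNSC library and the remaining 3 still lay above the other groups. Dlx5, 6213 bases from Dlx6os1 on the same strand of chromosome 6, averaged 3.99 ± 0.68 in pNSC, 2.07 ± 0.62 in qNSC and 2.50 ± 0.48 in aNSC. Dlx6os1, Sp9, Dcx and App, the amyloid precursor protein gene, stayed peaks in all 22 alternative fits, while Sp8, with floor values among its libraries, was a peak in 6 of them. App was named after its values were seen.

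The sequence upstream of the first of 2 RefSeq starts of Dlx6os1 is shown because it holds 2 copies of the homeodomain core TAATTA (capitals), the letters that Dlx and other homeodomain proteins recognise.
Dlx6os1, chr6:6869534-6869783, reverse strand: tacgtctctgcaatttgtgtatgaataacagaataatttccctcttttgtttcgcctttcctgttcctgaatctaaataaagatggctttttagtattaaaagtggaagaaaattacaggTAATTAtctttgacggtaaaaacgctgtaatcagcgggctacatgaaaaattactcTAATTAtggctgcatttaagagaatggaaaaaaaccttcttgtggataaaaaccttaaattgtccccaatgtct
In all, 9 letter patterns, on both strands, were counted in the 250 bases before the first listed RefSeq start of each gene. These were 27025 promoters. The downstream start of Tnc shown above is not the first listed and did not enter these counts. TAATTA stood in 4.90% of all promoters and in 2 of 32 peak promoters (6.25%). TTCCCAC stood in 5.41% of all, in 2 of 32 peak promoters and in 3 of 18 dip promoters (16.7%). The others were CTTTGAT (TCF/LEF, 3.23% of all), TGACTCA (AP-1, 4.43%), CCGGAAGT (ETS, 2.93%), TTTGGCGC (E2F, 0.437%), CAGCTG (an E-box, 12.8%), TGACGTCA (CRE, 1.62%) and the paired NFI half-sites TTGGC and GCCAA with 5 bases between (0.0407%). They stood in 0 to 3 of the 32 peak promoters.

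**Figure D3:**
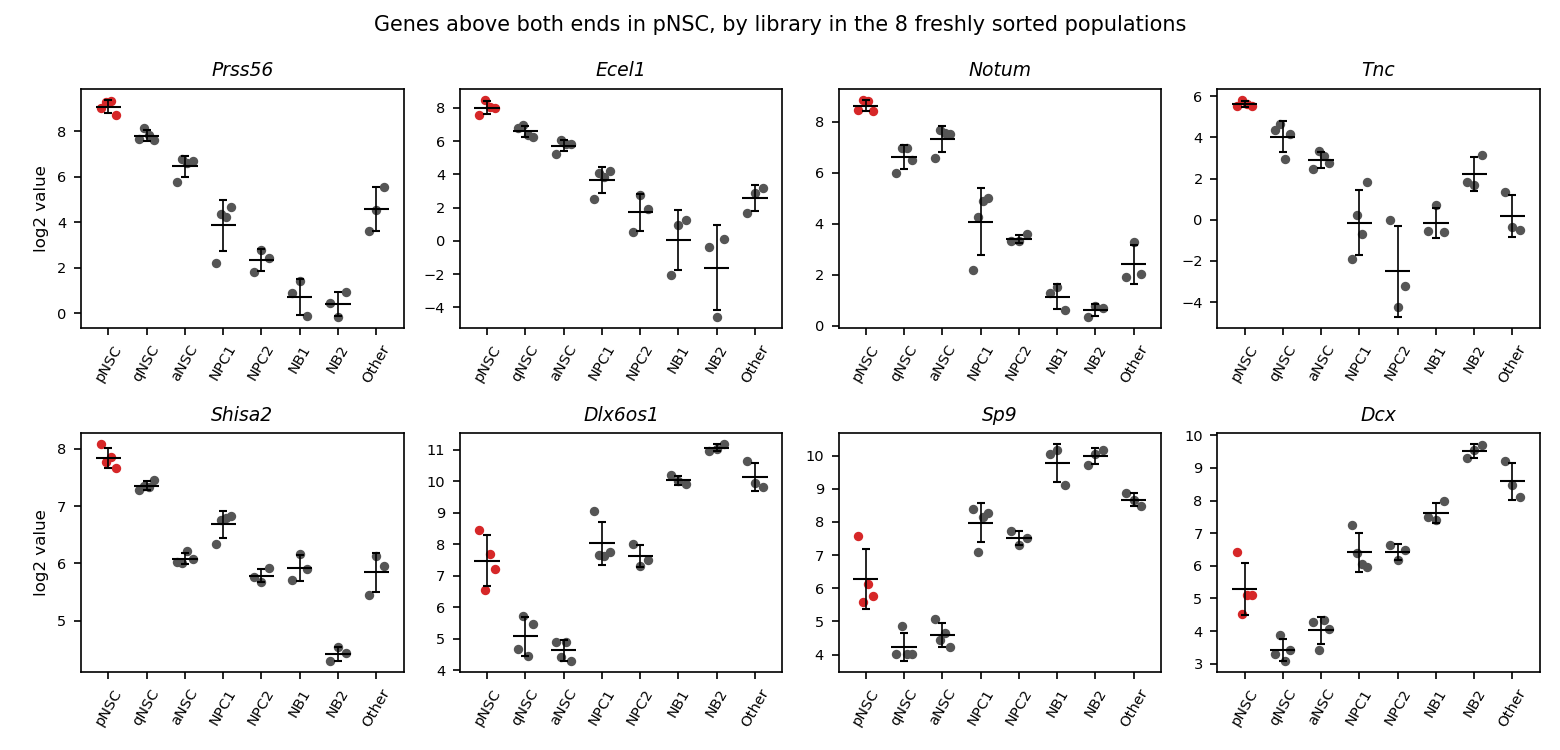
Points are libraries in the 8 freshly sorted populations, with pNSC in red, bars are group means and whiskers SD (4 libraries in pNSC, qNSC, aNSC and NPC1, 3 in the others), and the vertical axis is the log2 value. Prss56, Ecel1, Notum, Tnc and Shisa2 are highest in pNSC, whereas Dlx6os1, Sp9 and Dcx exceed both other stem cell groups in pNSC and are highest in NB1 or NB2.

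Genes of microglia, the immune cells of the brain, were another and less stable kind of peak. Csf1r, the receptor that keeps microglia alive, had values of 6.56, 5.51, 6.64 and 7.12 in pNSC, against 2.79, 4.47, 4.56 and 6.47 in qNSC and 4.17, 4.36, 4.77 and 5.09 in aNSC. One qNSC library, replicate 4, reached into the pNSC range. Its deviation was 1.87 ± 0.50 (adjusted p 0.0329), with 0.00259 to 0.116 over the alternatives, and it was on the line with a linear midpoint. Of 20 microglial markers 3 passed, Csf1r and Laptm5 among them, beside 8.71% of all genes, with a median deviation of 1.74. The defining microglial genes Cx3cr1 and P2ry12 were present throughout, at 7.30 to 7.79 and 4.94 to 6.33 in pNSC, 6.65 to 7.37 and 4.68 to 5.97 in qNSC, and 7.31 to 7.56 and 3.07 to 4.51 in aNSC. Cyth4 and Il6ra, 2 other peak genes that myeloid cells express, had adjusted p-values of 0.0405 and 0.0441 and stayed peaks in 4 and 7 of 22 alternatives. The part of microglial RNA in these results was not tested.

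Dips were fewer than peaks. Of the 27 dips 3 kept their class in all 22 alternative fits, against 17 of the 43 peaks. Of the 27, 5 met the rule for named genes, Mpp6, Sept9, Spry2, Fam160b1 and Sclt1. The scaffold protein gene Mpp6 was the firmest, with values of 5.31, 5.57, 5.60 and 5.56 in pNSC, against 6.05, 5.82, 6.20 and 6.11 in qNSC and 6.61, 6.48, 6.53 and 6.42 in aNSC. No pNSC library reached either group. Its difference from qNSC was -0.53 (adjusted p 0.012) and from aNSC -1.001 (2.07e-05), and its overlap with the Gsdme gene on the opposite strand leaves some reads open to either. Sept9, a septin of the cytoskeleton, averaged 5.60 ± 0.12 in pNSC, 6.16 ± 0.33 in qNSC and 6.13 ± 0.06 in aNSC (SD, n = 4 each). Fam160b1 averaged 3.67 ± 0.14 in pNSC, 4.53 ± 0.27 in qNSC and 4.28 ± 0.10 in aNSC, and the centriole gene Sclt1 3.70 ± 0.35, 4.38 ± 0.34 and 5.04 ± 0.09 in the same order.

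Spry2, a feedback inhibitor of FGF and EGF receptor signalling, had values of 3.16, 3.73, 3.22 and 3.81 in pNSC, against 4.53, 4.20, 4.19 and 4.35 in qNSC and 4.39, 4.17, 3.94 and 4.19 in aNSC. The groups did not overlap, with differences of -0.84 from qNSC (adjusted p 0.0188) and -0.69 from aNSC (0.0184). Its relative Spry4 and the ETS factor Etv5, both transcribed in response to FGF signalling, were named after their values were seen. Spry4 had 0.59, 2.84, -0.13 and 2.13 in pNSC, against 4.50, 3.40, 3.06 and 3.53 in qNSC and 3.86, 3.55, 2.93 and 3.96 in aNSC, with the pNSC libraries widely spread below the rest. Etv5 had 6.20, 6.60, 6.32 and 6.80 in pNSC, against 7.07, 7.10, 6.74 and 6.92 in qNSC and 6.87, 7.12, 7.22 and 7.37 in aNSC, so that pNSC replicate 4 overlapped qNSC. Their deviations were -0.76 (adjusted p 0.0194) for Spry2, -2.24 (0.0096) for Spry4 and -0.57 (0.0138) for Etv5. The range of adjusted p over the alternatives was 0.012 to 0.0673 for Spry2, 0.000755 to 0.0363 for Spry4 and 0.00674 to 0.0554 for Etv5. Other genes known to respond to FGF signalling, also chosen after their values were seen, did not pass, with deviations of 1.84 for Spry1 (adjusted p 0.0662), -1.08 for Etv4 (0.237) and -0.16 for Dusp6 (0.657). Dusp1, a phosphatase that ERK and stress kinases induce and then meet, went the other way and was early up, at 8.81 ± 0.49 in pNSC, 7.21 ± 0.78 in qNSC and 7.99 ± 0.19 in aNSC.

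**Figure D4:**
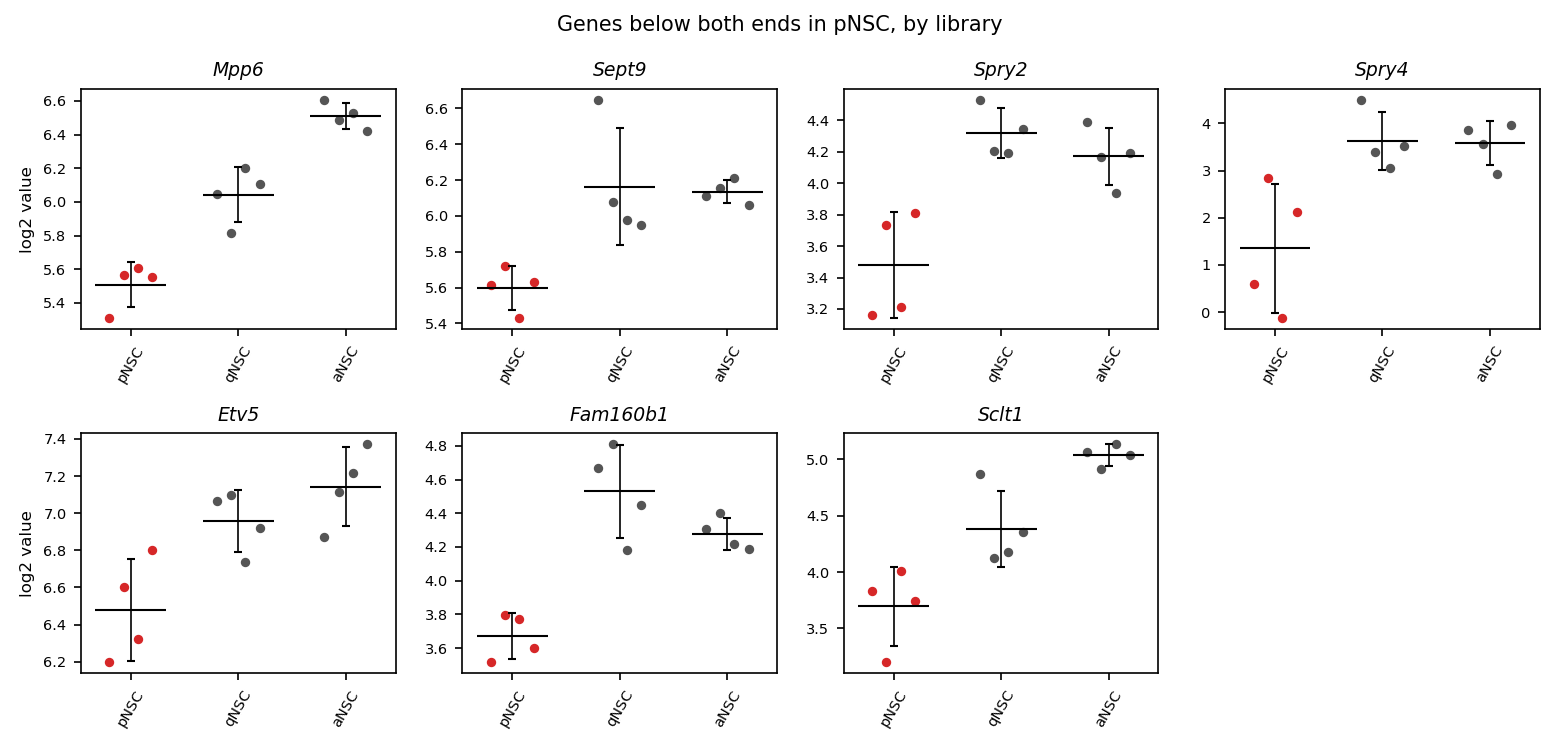
Points are libraries, with pNSC in red, bars group means and whiskers SD (n = 4 each), and the vertical axis the log2 value in each of 7 dip genes. In Mpp6, Sept9, Spry2, Spry4, Fam160b1 and Sclt1 every pNSC library lies below every other, and in Etv5 the highest pNSC library, at 6.80, overlaps qNSC.

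Early up genes included region and lineage factors of the stem cell as well as genes of young neurons. Gsx2, a homeobox gene of the lateral ventricle wall that promotes activation, had values of 5.99, 5.92, 5.84 and 5.22 in pNSC, against 3.15, 3.00, 3.55 and 2.80 in qNSC and 6.23, 6.25, 6.29 and 6.50 in aNSC. The pNSC libraries lay just under aNSC and far above qNSC, with a difference of 2.62 from qNSC (adjusted p 2.85e-05) and -0.58 from aNSC (0.0357). Nptx2, a secreted synaptic pentraxin, averaged 6.98 ± 0.30 in pNSC, 3.79 ± 0.31 in qNSC and 7.98 ± 0.14 in aNSC. Mycn, a transcription factor of the Myc family that promotes growth, averaged 6.57 ± 0.44 in pNSC, 3.81 ± 0.56 in qNSC and 7.61 ± 0.28 in aNSC. Gsx2, Nptx2 and Mycn were on the line against the linear midpoint.

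Among early up genes with a mean of at least 4 in the highest group and no overlap between qNSC and aNSC, the 4 with the largest deviation were Dpysl5, Gng2, Elavl4 and Tubb3. The neuronal tubulin gene Tubb3 had 7.51, 6.52, 6.56 and 6.14 in pNSC, against 4.33, 4.84, 3.30 and 3.97 in qNSC and 6.74, 6.23, 6.18 and 5.94 in aNSC. The RNA-binding protein gene Elavl4 had 7.97, 6.26, 6.74 and 5.80 in pNSC, against 3.34, 4.15, 3.26 and 3.69 in qNSC and 7.38, 6.94, 7.03 and 6.82 in aNSC. In both, pNSC and aNSC overlapped and qNSC lay apart, with pNSC minus aNSC at 0.41 (adjusted p 0.33) and -0.35 (0.452). Dpysl5, a growth cone protein, averaged 5.60 ± 0.58 in pNSC, 3.10 ± 1.1 in qNSC and 5.00 ± 0.13 in aNSC, and Gng2, a G protein subunit, 6.60 ± 0.69, 3.87 ± 1.24 and 6.36 ± 0.23 in the same order. All 4 were on the line against the linear midpoint. Rnd3, an atypical small GTPase that loosens the actin cytoskeleton, was the only early up gene to keep its class in all 22 alternatives. Named after its values were seen, it averaged 7.79 ± 0.33 in pNSC, 6.85 ± 0.10 in qNSC and 7.55 ± 0.09 in aNSC.

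The early down class was the smallest and held 9 genes, of which the rule named Tmtc2, Lmbr1, Dpyd and Shc3. Tmtc2, a protein mannosyltransferase of the endoplasmic reticulum, had 2.99, 2.17, 2.49 and 3.47 in pNSC, against 4.81, 4.18, 4.57 and 4.14 in qNSC and 3.28, 3.04, 3.62 and 3.19 in aNSC. The adaptor gene Shc3 had 3.92, 3.52, 3.84 and 3.98 in pNSC, against 5.18, 4.45, 5.41 and 5.30 in qNSC and 4.13, 4.38, 3.81 and 4.02 in aNSC. In both, pNSC lay below all qNSC libraries and overlapped aNSC. Dpyd, which degrades pyrimidines, averaged 3.29 ± 0.48 in pNSC, 5.00 ± 0.13 in qNSC and 3.18 ± 0.37 in aNSC, and lay just inside the threshold at an adjusted p of 0.04995. Tdo2 was just outside it, at 0.05001. None of the 9 kept its class in every alternative.

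The late down class held the astroglial program. Of 30 astroglial genes 29 were late down, beside 6.72% of all genes, with a median deviation of 1.65. All 30 were lower in aNSC than in qNSC, and of all 4659 such genes 1116 were late down. Against the linear midpoint 15 of the 30 were late down, beside 167 of all 16606 genes. The mean log2 value of the astroglial list in the pNSC libraries lay 13.1%, 6.11%, 3.93% and 0.713% of the way from qNSC to aNSC. Clu, the abundant secreted chaperone, averaged 12.64 in pNSC, 12.72 in qNSC and 5.13 in aNSC, with tied values in several libraries. Gfap, the astrocytic filament, had 6.50, 7.68, 6.61 and 7.38 in pNSC, against 7.02, 7.18, 6.71 and 6.86 in qNSC and 0.80, 1.72, 2.83 and 2.57 in aNSC. The gap junction gene Gja1 averaged 11.35 in pNSC, 11.47 in qNSC and 7.14 in aNSC, and the secreted protease gene Htra1 10.54, 10.83 and 4.61 in the same order. In Gfap, pNSC and qNSC overlapped throughout, and aNSC lay far below both.

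The 4 late down genes with the largest deviation were the BMP-family ligand gene Gdf10, the urea transporter gene Slc14a1, the connexin gene Gjb6 and the angiotensinogen gene Agt. Gdf10 had 5.45, 5.71, 6.11 and 6.31 in pNSC, against 6.38, 6.08, 6.16 and 6.08 in qNSC and -1.80, -3.47, -4.75 and -2.99 in aNSC. Slc14a1 averaged 6.89 in pNSC and 7.64 in qNSC, Gjb6 8.46 and 8.97, and Agt 6.57 and 7.21, while all 3 had aNSC means under 0. Their aNSC libraries lay at or near the lowest values, so the deviations of 4.23 to 4.43 depend on that floor. All 4 were on the line against the linear midpoint.

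Lists of metabolism and degradation differed in how many members were late down, beside 6.72% of all genes. Of the 4659 genes lower in aNSC than in qNSC, 1116 were late down. Without pNSC replicate 1, 1549 of all 16606 genes were late down, and against the linear midpoint 167. Lysosomal genes were late down in 19 of 30 (10 against the linear midpoint), with a median deviation of 0.49. Of 31 proteasome genes 1 passed, as late up, and 26 were lower in pNSC than in aNSC, as were 24.5% of all genes. Of 36 oxidative phosphorylation genes 2 were late down, and of 25 cholesterol synthesis genes 3. In both lists 11 genes were lower in aNSC than in qNSC. The cathepsin gene Ctsf averaged 8.38 in pNSC, 8.60 in qNSC and 5.13 in aNSC, and Ctsl 8.31, 8.43 and 5.94. Of 26 fatty acid oxidation genes 10 were late down (2 against the linear midpoint, 17 without pNSC replicate 1), among them Cpt1a, which admits fatty acids to mitochondria, at 7.68 in pNSC, 8.05 in qNSC and 5.01 in aNSC. Of 20 glycolysis genes 8 passed above the midpoint and 2 below. In the same list 7 were lower in pNSC than in qNSC, as were 7.40% of all genes. The astrocytic aldolase gene Aldoc, above the midpoint, averaged 11.88 in pNSC, 12.07 in qNSC and 6.56 in aNSC. The 2 that passed below it, named after their values were seen, were the lactate dehydrogenase gene Ldha and Pgk1. Ldha averaged 7.44 in pNSC, 7.67 in qNSC and 7.99 in aNSC. Against the linear midpoint 1 glycolysis gene passed above and 2 passed below.

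Signals and receptors of the niche were also counted, beside the 8.71% of all genes that passed and the 6.72% that were late down. Only genes lower in aNSC than in qNSC can be late down, and of all 4659 such genes 1116 were. Adhesion and matrix genes passed in 15 of 24, 14 late down and Tnc as a peak, and 3 of 24 passed against the linear midpoint. Thbs4, a thrombospondin, averaged 8.50 in pNSC, 8.47 in qNSC and 4.09 in aNSC. Of 25 genes for neurotransmitter receptors and transporters 9 were late down, among them the GABA-A receptor subunit gene Gabrb1 at 8.02 in pNSC, 8.70 in qNSC and 2.04 in aNSC, and all 9 were on the line against the linear midpoint. Of 23 Wnt genes 7 passed, 6 late down such as the inhibitor Dkk3 (10.27 in pNSC, 10.37 in qNSC and 7.36 in aNSC) and Notum as the peak. Against the linear midpoint 3 Wnt genes passed above and 1 below. BMP and Id genes passed in 5 of 17, all late down (2 against the linear midpoint), with Id3, a BMP target, at 8.03 in pNSC, 8.13 in qNSC and 4.42 in aNSC. Notch genes passed in 3 of 23 (Notch2, Hes5 and Lfng, all late down), and 11 of the 23 were lower in aNSC than in qNSC. Without pNSC replicate 1, 6 Notch genes passed above the midpoint and 1 below, and against the linear midpoint 1 passed above and 1 below. Of all 16606 genes 1624 passed above and 494 below without that library, and 212 and 457 against the linear midpoint. Stem cell transcription factors passed in 7 of 24 (2 against the linear midpoint), Sox9 at 9.80 in pNSC, 9.74 in qNSC and 8.09 in aNSC among them.

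Late up genes included Egfr, Olig2 and Gsx1, which activated and transit-amplifying cells use. Egfr, the EGF receptor, had 7.75, 7.41, 7.40 and 7.73 in pNSC, against 7.02, 7.04, 7.05 and 7.02 in qNSC and 9.48, 9.88, 9.68 and 9.998 in aNSC. The 3 groups were apart and pNSC stayed near qNSC, with a deviation of -0.82 ± 0.10 (adjusted p 0.000155) that kept its class in all 22 alternatives. The labels do not say whether the sort used this surface antigen. Olig2, a transcription factor of transit-amplifying and oligodendroglial cells, had 2.16, 2.15, 2.42 and 3.61 in pNSC, against 2.38, 2.86, 0.99 and 2.76 in qNSC and 5.92, 5.81, 6.30 and 6.37 in aNSC. Gsx1, the close relative of Gsx2, had 2.16, 2.1, 2.60 and 1.74 in pNSC, against 2.64, 0.86, 0.80 and 0.49 in qNSC and 5.75, 5.23, 5.64 and 5.54 in aNSC. In both, pNSC overlapped qNSC and aNSC lay apart, and the Gsx1 call (adjusted p 0.049) ranged from 0.00608 to 0.145 over the alternatives. Gsx2 was thus early up and Gsx1 late up on log2 values. Rbfox3, the neuronal splicing factor NeuN, averaged 0.78 ± 1.52 in pNSC, 1.47 ± 0.95 in qNSC and 4.19 ± 0.28 in aNSC.

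Few cell cycle and growth genes passed the test on log2 values, which 8.71% of all genes passed. Of 42 S phase genes 0 passed in limma (5 at an unadjusted p under 0.05), and 1 passed among 53 G2 and mitosis genes (Espl1, the separase that parts sister chromatids, late up), although 38 and 50 of them were higher in pNSC than in qNSC, as were 10.9% of all genes. Their mean log2 values lay at 49.9% ± 15.8 and 59.8% ± 12.8 of the way to aNSC (SD, n = 4). Against the linear midpoint 16 S phase genes and 6 G2 and mitosis genes were late up, beside 405 of all 16606 genes. Mki67, which marks cycling cells, had 7.23, 5.37, 6.39 and 5.33 in pNSC, against 2.16, 2.51, 3.10 and 3.46 in qNSC and 7.93, 8.08, 8.00 and 8.09 in aNSC, with replicates 1 and 3 the highest in pNSC. Of 79 cytosolic ribosomal protein genes 0 passed (3 at an unadjusted p under 0.05) and of 30 ribosome biogenesis genes 1 passed, at 37.0% ± 19.8 and 38.0% ± 9.73 of the way. Of 23 translation factor genes 4 were late up, beside 0.933% of all genes, Eif5a at 8.94 in pNSC, 8.19 in qNSC and 10.70 in aNSC among them. These counts rested in part on pNSC replicate 1. Without it 5 S phase, 4 ribosome biogenesis and 7 translation factor genes were late up. Of all 16606 genes 396 were late up without that library, against 155 with it.

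Immediate early genes, which cells switch on within minutes of a stimulus or of dissociation, had a mean log2 value at 84.3% ± 18.9 of the way to aNSC (SD, n = 4), with a median deviation of 0.89. That SD covers the pNSC libraries only. The list mean varied more in qNSC, with an SD of 1.1 log2 against 0.42 in pNSC. The median deviation was 0.618 without qNSC replicate 1. Of 25 tested, 2 passed, Dusp1 and Klf6, both early up, a share near the 8.71% of all genes. Klf6 averaged 7.73 ± 0.28 in pNSC, 6.62 ± 0.18 in qNSC and 7.79 ± 0.27 in aNSC. The early class of Dusp1 held in 3 of 22 alternatives. Without replicate 1 of both pNSC and qNSC, 6 of the 25 passed, 4 of them peaks. In that fit 2825 of all 16606 genes passed, 50 of them peaks.

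Over all genes that differed between the ends, the position of pNSC was much the same for rising and falling genes once linear values were summed. The 5561 genes higher in aNSC stood at 46.2%, 26.5%, 24.1% and 14.6% of the way in pNSC replicates 1 to 4. The 4659 genes lower in aNSC stood at 45.5%, 26.2%, 23.0% and 13.8%. The near-equal totals of all libraries tie these figures to each other. As means of log2 values, the rising genes stood at 42.4% ± 11.9 and the falling genes at 29.5% ± 12.6 (SD, n = 4).

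**Figure D5:**
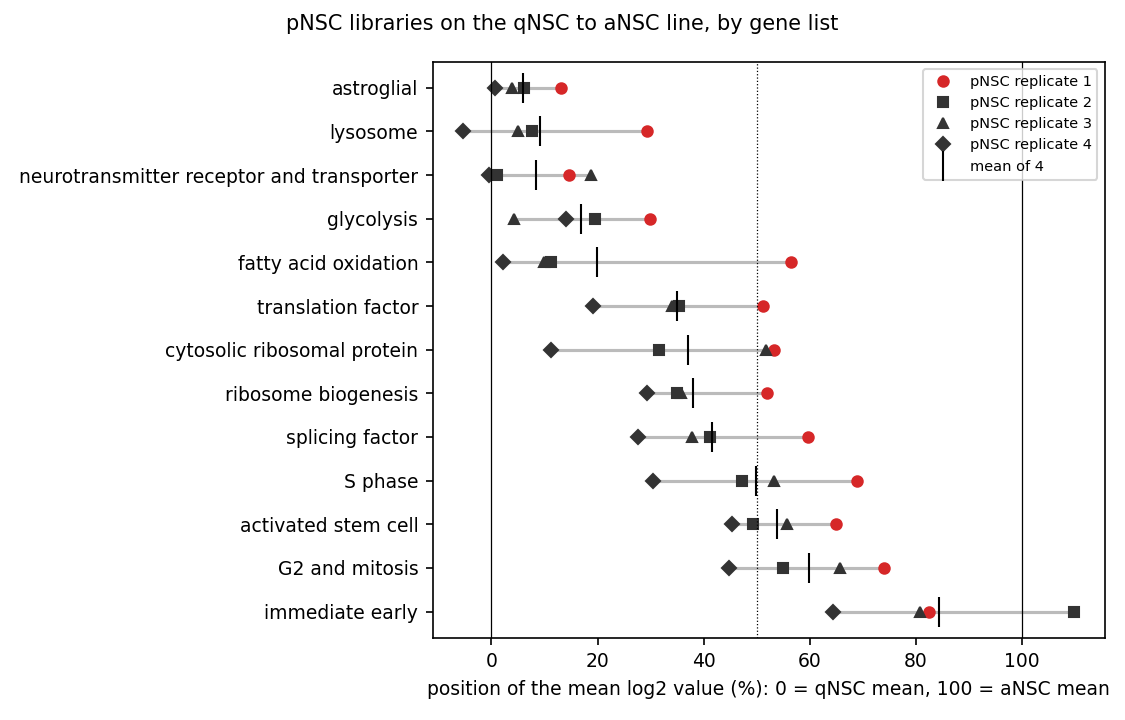
Each symbol is a pNSC library and the vertical tick the mean of 4, placed by the mean log2 value of a gene list as a percentage of the way from the qNSC mean (0) to the aNSC mean (100). The astroglial list lies between 0.713% and 13.1%, the S phase list between 30.5% and 68.8% and the immediate early list between 64.3% and 109.8%, with replicate 1 (red) farthest along in most lists.

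Several other genes checked did not pass. The CDK inhibitor gene Cdkn1a averaged 4.56 in pNSC, 1.88 in qNSC and 6.09 in aNSC, and Cdkn1b 5.54, 5.20 and 5.60. The surface protein gene Cd24a averaged 6.36 in pNSC, 4.64 in qNSC and 6.88 in aNSC, and Prom1 5.31, 4.79 and 5.66. Of 24 TNF and NF-kB genes only the receptor gene Tnfrsf1a passed, beside 8.71% of all genes. Tnfrsf1a was late down at 5.46 ± 0.31 in pNSC, 5.84 ± 0.11 in qNSC and 3.88 ± 0.21 in aNSC. It was on the line against the linear midpoint, and Tnfrsf1b, the other TNF receptor, did not pass. The tetraspanin gene Cd9 was late down at 9.32 ± 0.10 in pNSC, 9.45 ± 0.19 in qNSC and 8.48 ± 0.16 in aNSC, with adjusted p 0.0105 to 0.124 over the alternatives.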

How the data were processed

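RNA of 36 libraries was measured, of which the 12 libraries of pNSC, qNSC and aNSC entered the tests. The submitters' processing notes name HISAT2, featureCounts, cutadapt, Trimmomatic, limma and FastQC, with no versions, and as builds mm10 and GRCm38. What the authors deposited is a single table, in log2 values, holding every library as a column. No header names the unit. The values, which sum to nearly the same total in every library on the linear scale and have nearly the same median and maximum, resemble CPM after quantile normalization, so changes in total RNA cannot be seen. Read depth is not given. The lowest value of a library, its floor, was shared by 780 to 3932 genes in the 12 libraries.

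In this work, 1770 blank lines were dropped, 23 symbols turned into dates were restored by Ensembl identifier, and 19863 identifiers matched GENCODE M21 (GRCm38). A mean per group was fitted in limma (version 3.58.1, under R 4.3.3), using moderated variances with a trend and robust settings, and Benjamini-Hochberg adjustment over 16606 genes and a threshold of 0.05. Early genes passed in the direction of the difference between aNSC and qNSC, late genes in the opposite direction, and both needed that difference to pass. Only the 3 populations were fitted, so that the other populations did not enter the estimate of spread, and a fit of all 28 freshly sorted libraries was an alternative. On simulated data the fit returned the size and sign of known changes but called only part of them, fewer of the smaller ones. List positions are means over a list, and linear sums are of 2 to the power of the deposited value. Promoters came from RefSeq (GRCm38.p6).

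The members and the 38 gene lists were chosen with earlier results of these data known. Named genes were, among called genes with a mean of at least 4 in the highest group and no overlap between the groups their class compares, the 8 peaks and up to 6 dips with the largest smaller-of-2 difference from qNSC and aNSC and 4 of each switch class by deviation. Also named were 12 check genes, whatever their values, and up to 4 called members of each list by p. Some genes that the rule names are not reported here. Alternatives were 10 other settings or added choices and each library left out in turn, 22 fits in all.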

Additional observations from a re-analysis of the deposited data

Results flagged for a closer look

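Among 264 groups of 4 values, those of 86 genes in 3 populations and 6 of library-wide measures, 16 (6.06%) had 1 library far from the rest, and chance alone gives about 1 in 20 such groups. In aNSC replicate 1, 3 overlapping genes of one locus were low together, Notum at 6.56, Notumos at 4.46 and Myadml2os at 5.76, against at least 7.52, 5.18 and 6.71 in the other aNSC libraries. Id3 was low in the same library at 3.62, and Cdkn1a was high at 6.42. In pNSC replicate 1, Id3 (7.39), Mpp6 (5.31), Sfrp5 (3.32) and Rbfox3 (-1.50) were low and Rnd3 (8.27) was high. In pNSC replicate 3, Tnfrsf1b (-4.31, the floor) was low. In qNSC, Agt was low in replicate 3 (7.12) and Dlx5 in replicate 4 (1.14), and Ctsl (8.54) and Klf6 (6.88) were high in replicate 1 and Sp9 (4.87) in replicate 2.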

How the results depend on the processing

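The count of off-line genes, 1447 as reported, ran from 1042 to 2118 when 1 library was left out, lowest without pNSC replicate 4 and highest without pNSC replicate 1. Peaks, 43 as reported, ran from 28 to 51, lowest without aNSC replicate 2 or 3. Dips, 27 as reported, ran from 13 to 17 without any 1 aNSC library and reached 49 without pNSC replicate 4. The early switch genes numbered 38 and ran from 18 without aNSC replicate 3 to 61 without qNSC replicate 2, with 19 to 25 without aNSC replicates 1, 2 or 4, pNSC replicates 1, 2 or 3, or qNSC replicate 3. The late switch genes numbered 1271 and ran from 865 without pNSC replicate 4 to 1945 without pNSC replicate 1. Without replicate 1 of both pNSC and qNSC, an alternative chosen after seeing the data, 2825 genes were off the line, with 56 dips and 2490 late switch genes. With all 28 freshly sorted libraries in the fit there were 73 peaks, 101 dips and 100 early switch genes. Setting values below 0 to 0 gave 69 peaks, a mean of at least 4 left 12 dips, and a fit without trend and robust settings gave 25 early switch genes. The linear midpoint gave 669 off-line genes, 13 early switch genes and 572 late switch genes. By construction it lies above the log2 midpoint. Among the genes followed that passed against either midpoint, it turned the sign of the deviation of 7. These were Hopx (-0.0787), Sfrp5 (-0.0166), Pfkp (-0.0106), Rarres2 (-0.0898), Mycn (-0.137), Nptx2 (-0.0823) and Rgs16 (-0.376). Sign changes of genes that passed against neither midpoint were not counted. For the other changes the cause was not tested. Over 192 single genes and all alternatives, a deviation lost its call but kept its direction in 666 gene and alternative pairs. Another 3499 pairs neither lost nor gained a call, among them pairs that passed in neither fit. Genes at a floor limit what their sizes show, and read depth is not given.

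The replicate numbers are shared by the 3 groups, and the labels do not say whether they pair the samples. Correlations of same-numbered libraries' deviations from their group means were low, at 0.0158 to 0.176. Still, the best match had the same number in 11 of 12, a sign of pairing in the data that the labels do not state. The reported fit had no term for the replicate number. With the replicate number as a block, 1552 genes were off the line and 65 were peaks.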

Other observations

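In the other populations, the late up genes, which were chosen on the 3 stem cell groups alone, had their highest mean in aNSC for 81 of 155, in NPC2 for 38 and in NPC1 for 18. Of the 1116 late down genes, 951 were highest in qNSC and 71 in pNSC. In 850 of them every pNSC library was above all 16 libraries of the 5 other freshly sorted populations. For the 15159 genes on the line that count was 1243. Of the 27 dip genes, 13 had their lowest mean in pNSC among the 8 populations, 7 in Other and 6 in NB2.

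Of 20 tested genes of regional identity, 4 were off the log2 line (3 without pNSC replicate 1), beside 8.71% of all genes. Each was so in a different way, with Pax6 a peak, Gsx2 early up, Gsx1 late up and Hopx late down. Hopx averaged 6.69 in pNSC, 7.75 in qNSC and 1.07 in aNSC. Of 25 splicing factor genes 23 were higher in pNSC than in qNSC, as were 10.9% of all genes. On log2 values 2 of the 25 were late up, against 14 with the linear midpoint and 9 without pNSC replicate 1. Of all 16606 genes 155, 405 and 396 were late up in the same order.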
